A study of Mus musculus with 9 samples.

Results

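The TNF and lymphotoxin locus of mouse chromosome 17 holds 3 cytokine genes side by side, Ltb, Tnf and Lta, and the microRNA gene Mir6974 within Lta. These 4 genes were taken by symbol out of 23992 gene symbols in the deposited RNA-seq tables, and all 4 were found. Lta, Ltb and Tnf were analysed as genes, whereas the reads listed under Mir6974 were treated as reads of its host Lta. The cells were regulatory T cells (Tregs, the T cells that restrain immune responses) from spleens of BALB/c mice. They carried a green fluorescent protein reporter of Foxp3 and, after transduction, an orthogonal beta chain of the IL-2 receptor with a human EGFR tag. An orthogonal receptor is an engineered chain meant to answer an engineered IL-2, and the series concerns the use of such a pair to expand Tregs for transplantation tolerance.

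All groups shared one history. The cells spent 48 hours on beads against CD3 and CD28 in human IL-2 at 1000 IU/mL, were isolated magnetically by the EGFR tag, and rested for a night without IL-2. For the last 4 hours they had no IL-2, wild-type IL-2 (WT, 20000 IU/mL) or orthogonal IL-2 (ortho, 2000000 IU/mL), with 3 libraries per condition. In IU the ortho dose exceeded the WT dose 100-fold, and responses to the 2 cytokines were thus measured at unmatched doses. The cells had been activated in culture, and no group of unstimulated or untransduced Tregs was analysed here. Whether the libraries of a condition are separate cultures or animals is not stated in the labels. The p-values therefore reflect only how far these samples spread, and that spread may be technical.

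Lymphotoxin-alpha and TNF are related cytokines that each assemble as homotrimers and bind the TNF receptors TNFR1 and TNFR2. Lymphotoxin-alpha also joins lymphotoxin-beta, a membrane protein, in a heterotrimer on the cell surface that binds the lymphotoxin-beta receptor of stromal and myeloid cells and directs the formation and upkeep of lymphoid tissue. TNF is made as a membrane protein and is shed by the protease ADAM17, and Tregs are known for their high TNFR2. In T cells all 3 genes are induced by activation, through NF-kappaB and NFAT factors, and Tnf mRNA is short-lived because of AU-rich stretches in its 3′ untranslated region (UTR).

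The locus spans 11072 bases in GRCm38 (mm10), at chr17:35194507-35205578 by the RefSeq gene models. Ltb lies at chr17:35194507-35196305 on the plus strand. Tnf lies at chr17:35199367-35202007 on the minus strand, 3061 bases beyond Ltb. Lta lies at chr17:35203165-35205578, also on the minus strand, 1157 bases beyond Tnf. The transcripts counted were NM_010735 for Lta (1383 bases), NM_013693 for Tnf (1653 bases) and NM_008518 for Ltb (1095 bases). In the GENCODE M21 models, the annotated genes that overlap the 3 cytokine genes are Mir6974, in Lta, and Mir6973a, in Ltb.

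The sequences before the start sites are shown because Lta and Ltb, but not Tnf, hold a match to the motif bound by STAT factors, which carry the IL-2 signal. They are the RefSeq sequences of GRCm38.p6, a C57BL/6J genome, whereas the cells were BALB/c. Each is given 5′ to 3′ on the strand of its gene, and capitals mark matches to the STAT motif TTCNNNGAA, the NF-kappaB consensus and TATAA, searched on both strands. The 250 bases before each start were searched. Lta is shown as 30 bases around each STAT match, since a predicted RefSeq model of Lta starts further upstream, and Ltb up to the start of its longest GENCODE model. The windows are chr17:35205484-35205513 and chr17:35205352-35205381 (Lta, minus strand), chr17:35194257-35194438 (Ltb, plus strand) and chr17:35202008-35202257 (Tnf, minus strand).
Lta STAT match at -152: accatcactcTTCAGGGAAccaggcttcca
Lta STAT match at -16: ggacccgactccctTTCCCAGAAcgcagta
Ltb: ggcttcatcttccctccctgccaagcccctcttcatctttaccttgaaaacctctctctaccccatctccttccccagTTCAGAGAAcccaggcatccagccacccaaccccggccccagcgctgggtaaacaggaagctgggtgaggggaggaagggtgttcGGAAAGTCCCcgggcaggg
Tnf: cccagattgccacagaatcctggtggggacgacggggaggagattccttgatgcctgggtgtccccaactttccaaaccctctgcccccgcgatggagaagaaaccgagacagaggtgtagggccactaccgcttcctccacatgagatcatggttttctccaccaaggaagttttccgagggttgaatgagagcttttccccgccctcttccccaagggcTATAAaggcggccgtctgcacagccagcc

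Counted from the RefSeq start, the STAT matches begin at -152 and -16 in Lta and at -172 in Ltb. For Lta the start counted from is chr17:35205351. It lies inside the gene span given above, which takes in the predicted model, and so do the 2 Lta windows. At least 1 such match was present in 7.02% of the 32851 promoter windows of this length, and 2 or more, as in Lta, in 0.317%. The NF-kappaB match of Ltb begins at -87, and 3.90% of promoters hold one. TATAA begins at -29 in Tnf and at -167 in Lta, and 22.8% of promoters hold it. The short NFAT core GGAAA, not marked, occurs 3 times in the Tnf window, 2 times in that of Lta and 1 time in that of Ltb, and in 55.6% of promoters. One of the Lta copies overlaps the STAT match nearest the start, and the Ltb copy overlaps the NF-kappaB match. The AP-1 motif TGANTCA was not found in the 3 windows and is in 6.75% of promoters. These are matches of letters, and binding was not measured.

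The 3′ UTRs of the cytokine genes differ in AU-rich content, which marks mRNAs for rapid decay. The densest stretch of the Tnf 3′ UTR is shown with each ATTTA in capitals, at chr17:35199679-35199708 on the minus strand.
Tnf 3 prime UTR site: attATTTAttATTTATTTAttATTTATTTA
These 30 bases hold 5 copies of ATTTA and 4 of the nonamer TTATTTATT, counting overlaps. Over the 764 bases of the Tnf 3′ UTR there are 8 copies of ATTTA and 5 nonamers. As many of either are found in 0.412% and 0.109% of the 11903 UTR windows of that length. The Lta 3′ UTR of 572 bases has 3 copies of ATTTA and 1 nonamer, counts reached by 11.4% and 2.98% of 13489 windows. The Ltb 3′ UTR of 156 bases has neither, and among 18772 windows that short, 17.5% hold an ATTTA.

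Mir6974 occupies the whole of the 83-base intron 2 of Lta, chr17:35204475-35204557 on the minus strand, by the Lta-201 model. Its 5p product, at chr17:35204534-35204557, is printed to show what a small-RNA assay would have to detect, with the seed (bases 2 to 8) in capitals.
mmu-miR-6974-5p: gUGAGGCAgcaagagauugggggu
This seed is not shared with another of the 1679 mature mouse miRNAs in the RefSeq table. The libraries were made from mRNA, and fragments of 250 to 400 bases were kept per the labels, so reads here show the precursor intron and not the mature miRNA.

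Levels are given in 2 scales. CPM is the read count of a gene scaled to a library of 1000000 reads in the genes tested, after TMM scaling, which aligns libraries on genes taken to be unchanged, and it serves to compare libraries. RPKM, as deposited, is also divided by transcript length and serves to compare genes. Depth ran from 16581624 to 58182835 reads in genes per library, where 3 reads correspond to 0.0505 to 0.183 CPM, a floor that covers counting error only. The test covered 10702 genes, those that reached an RPKM of 1 in 3 or more libraries, including the 3 cytokine genes. A gene is called changed at an adjusted p under 0.05 in the quasi-likelihood test of edgeR. The IL-2 response genes Il2ra, Cish and Socs1 rose in both IL-2 groups, by 1.99 to 4.48 on the log2 scale. Foxp3, the factor that defines Tregs, was at 524 ± 9.58 CPM without IL-2 (SD, n = 3). The RPKM divisor is the library size behind the RPKM values. The share of it that lay outside the transcripts used, 1 per gene symbol, is called the outside-gene read share, and it moved with the treatment. It was 40.5% ± 2.43 in the no IL-2 group, 31.7% ± 2.96 in the WT group and 29.4% ± 3.64 in the ortho group (SD, n = 3).

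All 3 cytokine genes rose with either form of IL-2, to very different extents. Lta rose 17-fold in both IL-2 groups, Tnf 6.75-fold with WT and 7.32-fold with ortho IL-2, and Ltb 1.58-fold and 1.72-fold. The 3 levels without IL-2 were all below the 6 levels with IL-2, for each gene. Of all genes tested, 25% rose in the WT group and 28.5% in the ortho group, and groups were separated in the upward direction, without overlap, for 30.3% and 33.9%. Being called or separated was therefore common in these data, and it is the size of the change that set Lta and Tnf high in the ranking. By log2 fold change Lta was number 8 of 10702 with WT IL-2 and number 7 with ortho IL-2. Tnf was number 32 and number 30, and Ltb number 807 and number 680. In such bulk samples, more RNA per cell and more cells with the RNA cannot be told apart.

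**Figure D1:**
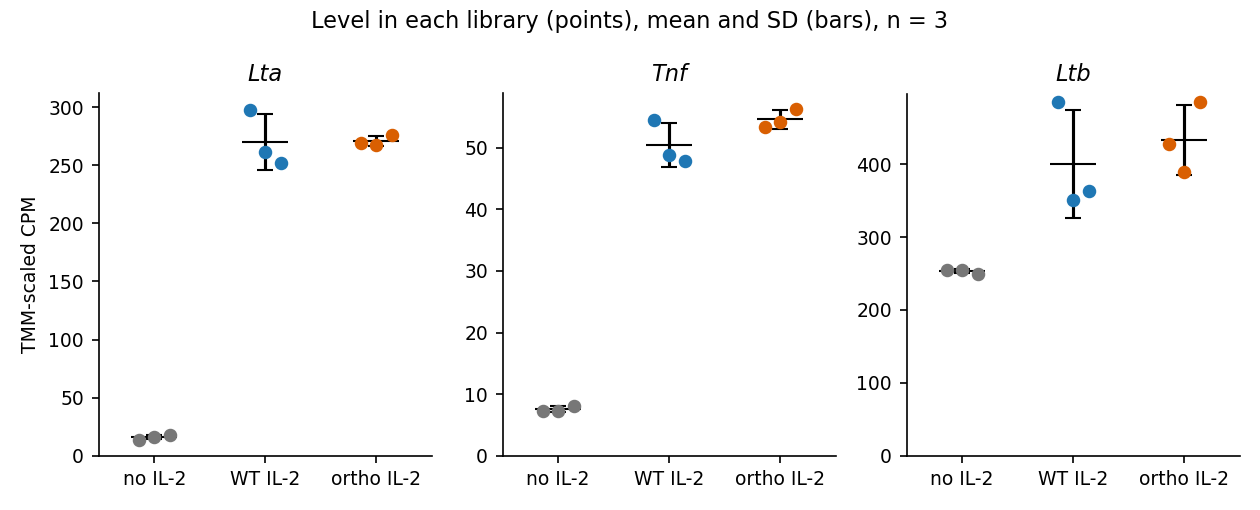
Level of Lta, Tnf and Ltb in each library in TMM-scaled CPM (points), by treatment on the horizontal axis, with the group mean and SD as bars (n = 3). All 3 genes are lowest in the libraries without IL-2, and Ltb spreads widely within both IL-2 groups.

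Lta, the lymphotoxin-alpha gene, was at 13.8, 16.3 and 18.04 CPM in the 3 libraries without IL-2. It was at 298, 261 and 252 CPM with WT IL-2, and at 269, 268 and 276 CPM with ortho IL-2. The libraries of each IL-2 group lay close together and far above those without IL-2, and the 2 IL-2 groups overlapped. The group means were 16.1 ± 2.13, 270 ± 24.3 and 271 ± 4.53 CPM (SD, n = 3). The log2 fold change was 4.09 with WT IL-2 (SE 0.10, edgeR adjusted p = 2.69e-09), with a 95% interval of 14.6-fold to 19.8-fold. With ortho IL-2 it was 4.09 (SE 0.10, adjusted p = 2.79e-09), with an interval of 14.6-fold to 19.9-fold. Per length, Lta moved from 6.83 RPKM, a level above that of 45.5% of the genes tested, to 133 and 139 RPKM, above 97.4% in either IL-2 group. A gene of middling level without IL-2 thus stood among the most abundant mRNAs after 4 hours of it.

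Tnf, the gene of the shed cytokine TNF, was the lowest of the 3 throughout. It was at 7.22, 7.25 and 8.07 CPM without IL-2. The values were 54.6, 48.8 and 47.9 CPM with WT IL-2, and 53.4, 54.3 and 56.4 CPM with ortho IL-2. The IL-2 groups again overlapped each other and were clear of the libraries without IL-2. The group means were 7.52 ± 0.482, 50.4 ± 3.62 and 54.7 ± 1.54 CPM (SD, n = 3). The log2 fold change was 2.76 with WT IL-2 (SE 0.07, edgeR adjusted p = 4.55e-09), with a 95% interval of 6.02-fold to 7.58-fold. It was 2.87 with ortho IL-2 (SE 0.07, adjusted p = 3.62e-09), with an interval of 6.52-fold to 8.21-fold. Per length Tnf moved from 2.67 RPKM, above 20.5% of the genes tested, to 20.8 and 23.5 RPKM, above 74.2% and 76.6%. A second Tnf transcript in the tables, NM_001278601 with 1605 bases, held nearly the same reads, 12037 over the 9 libraries against 12335 for the transcript used, so the 2 forms were not resolved.

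Ltb, the gene of the membrane-bound lymphotoxin-beta, was already abundant without IL-2, at 254, 255 and 250 CPM. It was at 485, 351 and 363 CPM with WT IL-2, and at 427, 389 and 485 CPM with ortho IL-2. The libraries without IL-2 were almost level, whereas replicate 1 of WT IL-2 and replicate 3 of ortho IL-2 stood above the others of their groups. The group means were 253 ± 2.84, 399.7 ± 74.2 and 433.5 ± 48.2 CPM (SD, n = 3). The log2 fold change was 0.66 with WT IL-2 (SE 0.12, edgeR adjusted p = 0.00132), with a 95% interval of 1.31-fold to 1.90-fold. It was 0.78 with ortho IL-2 (SE 0.12, adjusted p = 0.000425), with an interval of 1.43-fold to 2.06-fold. Per length Ltb was at 135, 249 and 282 RPKM, and it was above at least 97.9% of the genes tested in every group.

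The size of the Ltb change moved with measures of the libraries. The Ltb transcript has a GC content of 62.6%, higher than that of 98.7% of the genes tested, against 55.7% for Lta and 52.1% for Tnf. The 2132 genes of highest GC content, at 55.7% or more, deviated from their mean by 0.23 in replicate 1 of WT IL-2 and by 0.25 in replicate 3 of ortho IL-2, on the log2 scale. Those are the 2 libraries where Ltb was highest. In the libraries without IL-2 the same genes deviated by -0.18, -0.15 and -0.16. With an offset for GC content in each library, the Ltb log2 fold change was 0.42 in both comparisons (SE 0.03 in each, adjusted p = 5.42e-07 with WT and 5.79e-07 with ortho IL-2). The offset changed Lta to 3.98 and 3.93, and Tnf to 2.73 and 2.82. With the outside-gene read share added to the model, Ltb was at 0.53 and 0.61 and was not called (adjusted p = 0.105 and 0.135), while Lta was at 3.92 and 3.88 and Tnf at 2.66 and 2.74, all called. How much of the Ltb change goes with the treatment and how much with that share cannot be told apart here.

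**Figure D2:**
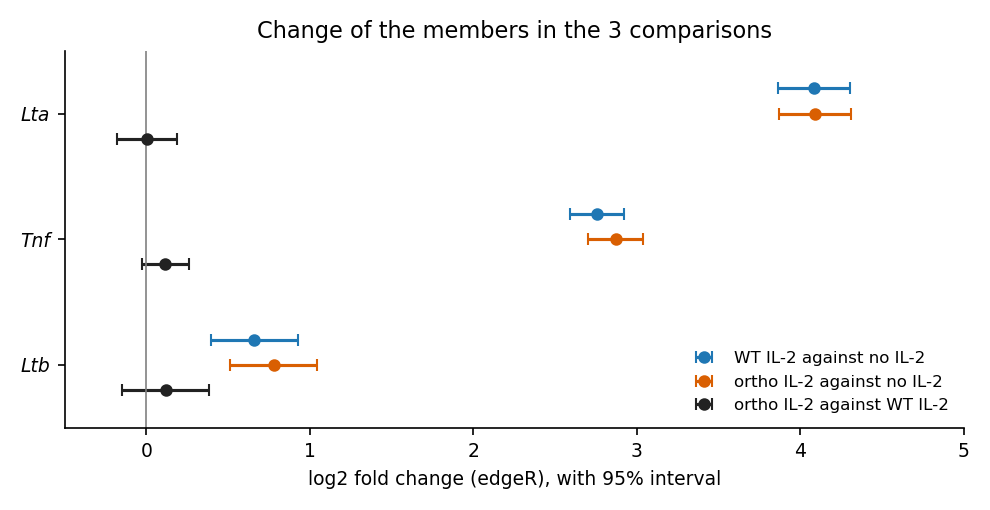
Log2 fold change of Lta, Tnf and Ltb from edgeR (points) with 95% intervals (bars) for WT IL-2 and ortho IL-2 against no IL-2 and for ortho against WT IL-2. Lta lies near 4.09, Tnf between 2.76 and 2.87 and Ltb between 0.66 and 0.78, and the 3 intervals of ortho against WT IL-2 include 0.

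Ortho IL-2 was compared with WT IL-2 to ask whether the engineered cytokine gave another response of the locus, at the unmatched doses used. No difference was called for the 3 genes, and their groups overlapped, where 2.42% of all genes were separated upwards and 2.23% downwards. The difference, ortho minus WT on the log2 scale, was 0.01 for Lta (SE 0.08, 95% interval -0.18 to 0.19, edgeR adjusted p = 0.99). It was 0.12 for Tnf (SE 0.06, interval -0.03 to 0.26, adjusted p = 0.909). For Ltb it was 0.12 (SE 0.12, interval -0.15 to 0.38, adjusted p = 0.909). The intervals leave room for a modest difference in either direction. Over all 10702 genes edgeR called 0 in this comparison (0%), as did DESeq2 and limma, and 149 genes (1.39%) had an unadjusted p under 0.05 in edgeR. That count rested on single libraries. It was 2616 without replicate 1 of WT IL-2, 75 and 59 without replicates 2 and 3 of WT IL-2, and 229, 258 and 79 without replicates 1, 2 and 3 of ortho IL-2, with 0 genes called each time. Without replicate 1 of WT IL-2 the difference was 0.08 for Lta (adjusted p = 0.474), 0.18 for Tnf and 0.28 for Ltb (adjusted p = 0.173 for both). Both IL-2 groups were set against the same 3 libraries without IL-2, so the likeness of their 2 responses is not independent evidence.

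Because the 3 genes changed by different amounts, the balance between them shifted. Per length, the order without IL-2 was Ltb, Lta, Tnf, and the order was the same in both IL-2 groups. The ratio of Lta to Ltb in RPKM was 0.0430, 0.0508 and 0.0572 in the libraries without IL-2. It was 0.486, 0.589 and 0.549 with WT IL-2, and 0.499, 0.546 and 0.451 with ortho IL-2. Lta mRNA was thus far below Ltb mRNA without IL-2 and nearer to it, though still below, with either form of IL-2. By the mean of log2 ratios, the Lta to Ltb ratio was 10.4-fold higher over the 6 IL-2 libraries than over the 3 without. The exact permutation p was 0.0238 (2-sided, n = 6 and 3), the smallest this design allows. The ratio of Lta to Tnf in RPKM was 2.28, 2.69 and 2.67 without IL-2, then 6.52, 6.39 and 6.28 with WT and 6.03, 5.90 and 5.86 with ortho IL-2. It was 2.42-fold higher with IL-2 by the same measure (exact permutation p = 0.0238, 2-sided, n = 6 and 3). Adjusted over the 2 ratios, both p-values remained 0.0238. The 6 IL-2 libraries pool 2 cytokines at unmatched doses. Both ratios were tested in the same libraries that showed the unequal changes, so these p-values add no separate support. The mean ratio of Ltb to Tnf in RPKM was 50.9 without IL-2, 11.9 with WT and 12.0 with ortho IL-2, and was not tested. Ratios within a library do not depend on its scaling, but they do carry the part of the Ltb change that moved with GC content. The cause of that part was not tested.

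**Figure D3:**
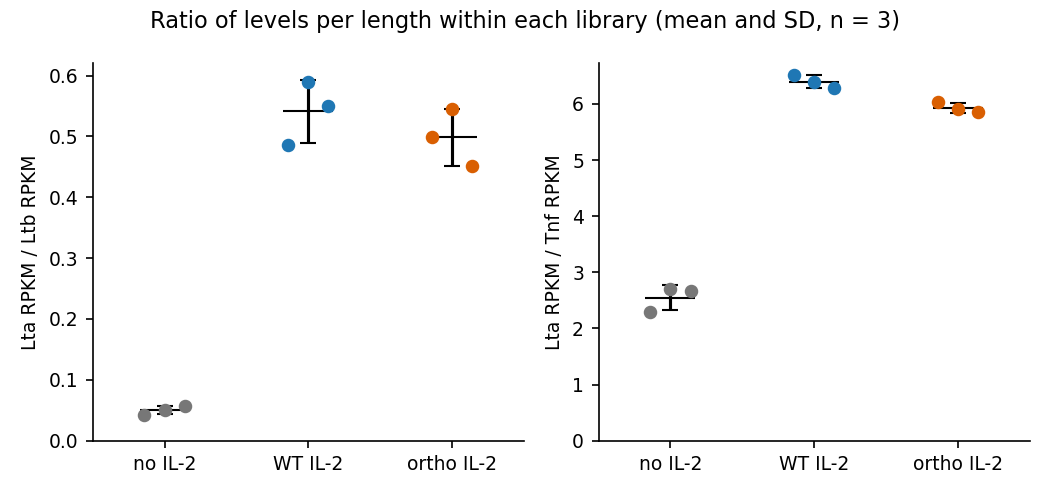
Ratio of Lta to Ltb (left) and of Lta to Tnf (right) in RPKM within each library (points), by treatment, with mean and SD as bars (n = 3). Ratios without IL-2 lie at 0.0430 to 0.0572 and 2.28 to 2.69, below all ratios with IL-2.

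Mir6974 held 1, 0 and 0 reads in the libraries without IL-2. It held 48, 18 and 17 reads with WT IL-2, and 33, 16 and 70 with ortho IL-2. It passed the filter on low values through the IL-2 libraries alone, so its edgeR result is not given. Per depth, reads were 58.0 times as frequent with WT IL-2 as without (exact 95% interval 10.1 to 2318). For ortho IL-2 the ratio was 72.9 (12.8 to 2902). These intervals, and those of the shares below, hold counting error over the pooled group and leave out the spread between libraries. Both ratios rest on the 1 read without IL-2, so the size of the change is not settled. As a share of Lta reads the group totals were 0.0878% without IL-2 (exact 95% interval 0.00222% to 0.488%), 0.294% with WT IL-2 (0.234% to 0.364%) and 0.368% with ortho IL-2 (0.305% to 0.441%). The single read without IL-2 leaves an interval that holds both other shares, so no change of the share was detectable at this depth. Ltb carries a comparable case, Mir6973a, the last 78 bases of its intron 1. Reads there made up 0.478% of Ltb reads without IL-2, 0.432% with WT and 0.494% with ortho IL-2. Since the use of strand in counting is not given, reads on either strand could contribute to these and to all genes described.

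The genes around the locus were compared with it. Of 15 other protein-coding genes within 100 kb, 13 were tested, and 6 rose and none fell with WT IL-2, while 7 rose and 1 fell with ortho IL-2. Over all genes 47.9% were called in the first comparison (25% rose and 22.9% fell) and 56% in the second (28.5% and 27.4%). In either direction the neighbours' shares lay near the background, but rises were more frequent among them and falls less so. The rises with ortho IL-2 numbered 4 without replicate 1 of no IL-2. Their log2 fold changes ran from -0.78 to 0.70 (median 0.25) with WT IL-2 and from -1.06 to 1.05 (median 0.36) with ortho IL-2, where the median of all genes was 0.01 in both. With GC offsets the medians were 0.17 and 0.16, with 6 higher and 2 lower, then 6 and 4, and with the outside-gene read share in the model 0 and 1 neighbours were called. With the RPKM divisor as library size 9 rose and none fell with WT IL-2, while 11 rose and 1 fell with ortho IL-2. The neighbour that fell, D17H6S53E, was at -1.06 with ortho IL-2 (edgeR adjusted p = 0.0396). Its call was lost without replicates 1 or 2 of no IL-2 (adjusted p = 0.16 and 0.0862) or replicates 2 or 3 of ortho IL-2 (adjusted p = 0.1 and 0.119). The Ltb change lay inside the range of these neighbours only through Ly6g5b, and the changes of Lta and Tnf lay above that range. On the Ltb side, the leukocyte-specific gene Lst1 was at 0.39 with WT IL-2 (edgeR adjusted p = 0.0149, and 0.0515 without replicate 3 of no IL-2) and 0.24 with ortho IL-2 (adjusted p = 0.0903). On the other side, beyond Lta, Nfkbil1, named for its likeness to NF-kappaB inhibitors, was at 0.12 (adjusted p = 0.369) and 0.37 (adjusted p = 0.0143). The latter call was lost without replicate 1 of no IL-2 (adjusted p = 0.0513) or replicate 3 of ortho IL-2 (adjusted p = 0.0564), and the value was -0.02 with GC offsets. The RNA helicase gene Ddx39b rose by 0.31 and 0.38 on the log2 scale (adjusted p = 0.00204 and 0.000499). The class I gene H2-D1 was at 0.04 and 0.07 (adjusted p = 0.637 and 0.403). The largest neighbouring value was that of Ly6g5b, at 0.70 and 1.05, a gene with as few as 17 reads in a library. It was at 0.891 CPM without IL-2, 1.42 with WT and 1.81 with ortho IL-2. Ly6g5b may have passed the filter on low values through the IL-2 libraries alone, though it is among the rises counted above.

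**Figure D4:**
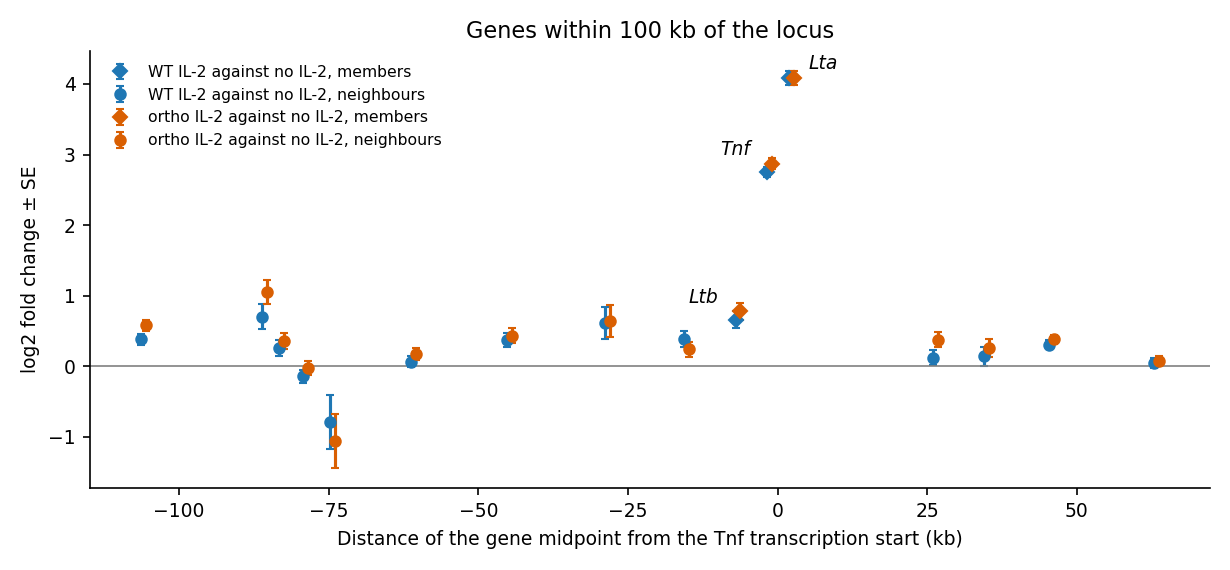
Log2 fold change from edgeR (points, SE as bars) of the 13 tested neighbours and the 3 cytokine genes against the distance of each gene's midpoint from the Tnf start in kb, negative towards Ltb. Lta and Tnf stand at 4.09 and 2.76 to 2.87, and the neighbours lie between -1.06 and 1.05.

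The other TNF superfamily ligands were followed as relatives of the locus. Of 15, 8 were tested, and 3 rose and 1 fell with WT IL-2, while 4 rose and 1 fell with ortho IL-2 (median log2 fold changes 0.21 and 0.33). Among all genes tested, 25% rose and 22.9% fell in the WT group, and 28.5% rose and 27.4% fell in the ortho group. The ligand rises with ortho IL-2 numbered 3 without replicates 1 or 2 of no IL-2 or replicate 3 of ortho IL-2. With the RPKM divisor as library size 5 ligands rose and 1 fell, then 6 and 1. Tnfsf14 (LIGHT), which shares the lymphotoxin-beta receptor, was low, at 1.09 CPM without IL-2 and 4.33 and 4.74 CPM with it. Tnfsf14 may have passed the filter on low values through the IL-2 libraries alone, so its log2 fold changes are not given. It remains among the ligand rises counted above. Tnfsf11, the gene of RANKL, rose from 15.5 to 27.99 and 26.2 CPM. Tnfsf10, the gene of the death ligand TRAIL, rose from 128 to 211 and 202 CPM. Cd40lg, whose product licenses B cells and dendritic cells, fell from 14.3 to 9.03 and 9.22 CPM. A second ligand gene, Tnfsf4, was called lower with ortho IL-2 without replicate 3 of no IL-2 or replicate 2 of ortho IL-2.

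Of the receptors, Tnfrsf1b, the gene of TNFR2, rose from 143 CPM without IL-2 to 260 and 272 CPM. Its log2 fold changes were 0.86 (SE 0.07, edgeR adjusted p = 5.14e-06) and 0.93 (SE 0.07, adjusted p = 2.95e-06). Tnfrsf1a, the gene of TNFR1, was lower, at 20.3, 23.0 and 23.4 CPM, and was not called, with log2 fold changes of 0.18 (adjusted p = 0.146) and 0.21 (adjusted p = 0.0901). Over 19 alternative settings Tnfrsf1a was called higher in 2 with WT IL-2 (0.34 to 0.40) and in 4 with ortho IL-2 (0.28 to 0.49). These included the RPKM divisor as library size in both comparisons, and ortho IL-2 without its replicate 2 (edgeR adjusted p = 0.029). Ltbr, the receptor of the lymphotoxin heterotrimer, was too low to test, with 5 to 25 reads per library and 0.330 to 0.420 CPM in the group means. Tnfrsf14 (HVEM), a receptor of LIGHT and of secreted lymphotoxin-alpha, fell from 45.9 to 26.9 and 29.0 CPM. Of the shedding genes, Rhbdf2, whose product escorts ADAM17, rose by 0.75 and 0.83 on the log2 scale, calls that were lost with the outside-gene read share in the model (0.62 and 0.67, adjusted p = 0.171 and 0.243). Adam17 fell by 0.23 and by 0.26, which with the RPKM divisor as library size was -0.01 with WT IL-2 and turned to 0.01 with ortho IL-2. In this list of 8, 5 were tested, and 2 rose and 2 fell in each comparison. Among all genes 25% rose and 22.9% fell with WT IL-2, and 28.5% rose and 27.4% fell with ortho IL-2. Under the RPKM divisor 3 of the list rose and 1 fell in each comparison. With the outside-gene read share in the model 1 rose and 1 fell in each.

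The pathway that TNF and lymphotoxin switch on was counted as 58 genes, the receptors and shedding genes, signalling proteins, NF-kappaB genes and other NF-kappaB targets. Of the 53 tested, 14 rose and 17 fell with WT IL-2, and 19 rose and 16 fell with ortho IL-2. The medians were -0.07 and -0.05 on the log2 scale, against 0.01 for all genes. In either direction these were somewhat larger shares than the 47.9% and 56% of all genes called. Over all genes 25% rose and 22.9% fell with WT IL-2, and 28.5% rose and 27.4% fell with ortho IL-2. The split of the pathway genes rested on the scaling. With the RPKM divisor as library size, which put the median of all genes at 0.22 and 0.29, 21 rose and 3 fell, then 26 and 3. Over all genes 52.2% and 51.0% of the calls were rises with TMM scaling, against 83.8% and 85.8% with that divisor. Lta, Tnf and Ltb rose under both scalings. The pathway falls with WT IL-2 numbered 11 without replicate 1 of no IL-2, and the rises with ortho IL-2 numbered 12 without replicate 3 of ortho IL-2. With the outside-gene read share in the model 8 rose and 8 fell, then 7 and 4. Among the named pathway genes and ligands, that setting also ended the calls of Adam17, Rel, Rc3h1 and Tnip1 in both comparisons and of Cd40lg, Gadd45b and Gch1 with ortho IL-2.

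Among 24 signalling proteins, 8 rose and 6 fell with WT IL-2, and 11 rose and 5 fell with ortho IL-2. Of all genes 25% rose and 22.9% fell in the first comparison, and 28.5% and 27.4% in the second. The rises with WT IL-2 numbered 5 without any one library of no IL-2 or replicate 1 of WT IL-2. Those with ortho IL-2 numbered 6 without replicate 1 of no IL-2 or replicate 3 of ortho IL-2. Under the RPKM divisor 11 rose and 1 fell, then 14 and 1. The 4 genes of smallest p were Casp8, Ripk1, Ripk3 and Mlkl. Casp8, the initiator caspase, rose from 114 to 230 and 226 CPM. The kinase genes Ripk1 and Ripk3 rose by 0.50 and 0.54 with WT IL-2 and by 0.44 and 0.57 with ortho IL-2, on the log2 scale. Mlkl, the executor of necroptosis, rose by 0.71 and 0.82 from 5.15 CPM, and with the outside-gene read share in the model its call with ortho IL-2 was lost (0.66, adjusted p = 0.0731). Fadd, the adaptor of Casp8, was at -0.39 and -0.57 (adjusted p = 0.218 and 0.0766), and Cflar, a Casp8 inhibitor, at -0.14 and -0.22 (adjusted p = 0.243 and 0.0681). The falls in both comparisons were those of Birc2, Birc3, Cyld, Ikbkg and Fam105b, between -0.49 and -0.23. With WT IL-2 the call of Cyld was lost without any one library of no IL-2 or replicate 1 of WT IL-2 (adjusted p up to 0.112). Ikbkb was called with WT IL-2 at -0.15, but at 0.07 and not called with the RPKM divisor. That call was also lost without replicates 1 or 3 of no IL-2 or replicates 2 or 3 of WT IL-2 (adjusted p up to 0.0882). These 8 genes were chosen after their values were seen.

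Among 14 NF-kappaB subunits and inhibitors, 2 rose and 4 fell with WT IL-2, and 4 rose and 4 fell with ortho IL-2. The shares over all genes were 25% and 22.9% with WT IL-2, and 28.5% and 27.4% with ortho IL-2. Tnfaip3, the gene of the inhibitor A20, fell from 761 to 394 and 399 CPM (log2 fold changes -0.95 and -0.93). The nuclear IkappaB genes Nfkbiz and Bcl3 rose, Nfkbiz by 1.29 and 1.25 and Bcl3 by 0.95 and 1.00 on the log2 scale. With the outside-gene read share in the model the calls of Bcl3 were lost (0.81 and 0.82, adjusted p = 0.0685 and 0.136), and 1 gene of the list rose and 1 fell in each comparison. Under the RPKM divisor 5 rose and 1 fell, then 7 and 1. The falls with WT IL-2 numbered 2 without replicates 1 or 2 of any group other than WT IL-2, or without replicate 2 of WT IL-2. With ortho IL-2 the falls numbered 2 without replicate 2 of no IL-2 or replicates 1 or 2 of ortho IL-2, and the rises 2 without replicate 3 of ortho IL-2. Rel, the gene of the lymphoid subunit c-Rel, was at -0.19 and -0.31 by TMM scaling, and at 0.02 and -0.03 with the RPKM divisor. Its call with WT IL-2 (adjusted p = 0.0441) was lost without any one of the 3 libraries of no IL-2, replicates 1 or 2 of WT IL-2 or replicates 1 or 2 of ortho IL-2, with adjusted p up to 0.127. Tnip1, an A20 partner, was at -0.26 and -0.21, the latter turning to 0.07 with the RPKM divisor. Its call with ortho IL-2 was lost without any one library of no IL-2 or replicates 1 or 2 of ortho IL-2, with adjusted p up to 0.0874.

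Of 12 other NF-kappaB target genes, 10 were tested, and 2 rose and 5 fell in each comparison. Over all genes 22.9% fell and 25% rose with WT IL-2, and 27.4% fell and 28.5% rose with ortho IL-2, so falls were more frequent in this list. The 2 rises of the list were Ier3, an early response gene, by 1.18 and 1.49, and Irf1, an interferon regulatory factor gene, by 0.49 and 0.60 (log2). The falls included Gadd45b, a stress gene, at -0.45 and -0.28, and Gch1, the gene of the first enzyme of tetrahydrobiopterin synthesis, at -0.45 in both. The falls with WT IL-2 numbered 3 without replicate 1 of no IL-2. With the RPKM divisor none of the 10 fell and 2 rose in each comparison, and Gadd45b with ortho IL-2 was at 0.00145. The 3 genes of the locus are themselves NF-kappaB targets and were not part of this list.

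Of 12 genes of factors known to bind the Tnf or Lta promoters, 3 rose and 5 fell with WT IL-2, and 3 rose and 4 fell with ortho IL-2. Of all genes 25% rose and 22.9% fell with WT IL-2, and 28.5% rose and 27.4% fell with ortho IL-2. Under the RPKM divisor 4 of the 12 rose and 1 fell, then 5 and 1. The falls with WT IL-2 numbered 3 without replicates 1 or 3 of no IL-2, replicate 2 of WT IL-2 or replicate 1 of ortho IL-2. The rises were Fos, Jun and Nfatc2. Fos and Jun encode the AP-1 subunits, and Fos rose from 5.06 to 16.3 and 16.0 CPM and Jun from 19.6 to 37.0 and 38.3 CPM. Nfatc2, the gene of an NFAT factor, rose by 0.82 on the log2 scale in both, and Nfatc3, of another, fell by 0.50 and by 0.55. Regulators of AU-rich mRNAs such as Tnf were counted as 12 genes, of which 1 rose and 7 fell in each comparison (medians -0.20 and -0.21). By TMM scaling, falls were thus more frequent in this list than over all genes, and rises less so. The falls with WT IL-2 numbered 3 without replicate 1 of no IL-2, and with the outside-gene read share in the model 2 fell in each comparison. Zfp36l2 and Zfp36l1, whose products promote decay, fell from 682 to 383 and 376 CPM and from 600.1 to 386 and 372 CPM. Rc3h1, the gene of Roquin-1, was at -0.32 and -0.43 on the log2 scale. Mapkapk2, whose kinase product stabilises Tnf mRNA, rose by 0.76 and 0.75. With the RPKM divisor 2 rose and 2 fell in each comparison, with medians of 0.02 and 0.07, and Rc3h1 was not called.

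**Figure D5:**
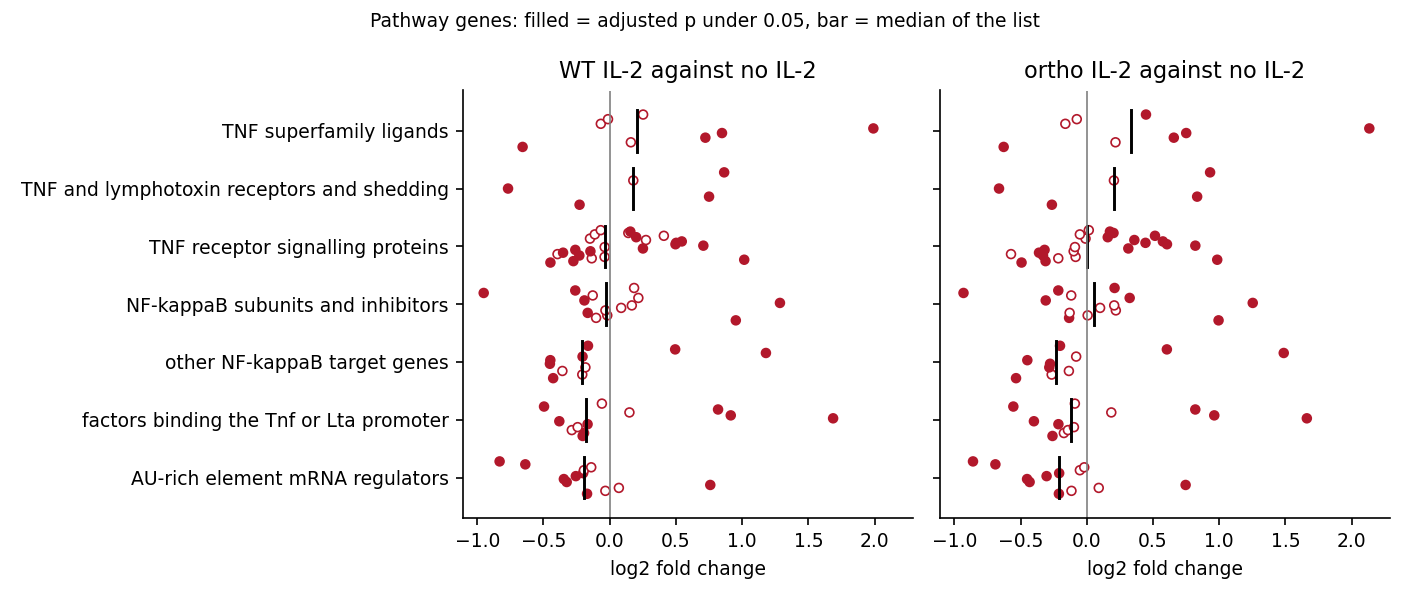
Log2 fold change of each tested gene of the 7 pathway lists (points, filled where the edgeR adjusted p was under 0.05) with the list median (bar), for WT IL-2 (left) and ortho IL-2 (right) against no IL-2. Points of each list lie on both sides of 0, and the list of AU-rich element mRNA regulators has 7 called falls and 1 called rise in each panel under TMM scaling, against 2 and 2 with the RPKM divisor as library size.

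For each cytokine gene the 5 tested genes with the most similar profile over the 9 libraries were taken, by the root mean square difference of log2 CPM relative to the mean without IL-2. For Lta these were Socs1 (0.28), Emilin2 (0.29), Drc1 (0.37), Tgm2 and Dnah7a (0.52 each). For Tnf they were Ltbp1 (0.07), Gpr83 (0.07), Gpld1 (0.09), Adam19 (0.09) and Osm (0.10). For Ltb they were Foxp3 (0.03), Triobp (0.04), G6pc3 (0.04), Piezo1 and Tnk2 (0.05 each). The 5 neighbours of Ltb in profile have a GC content of 55.0% to 60.7%, and Foxp3 rose from 524 to 849 and 899 CPM (SD 161 and 99.5 in the IL-2 groups, n = 3). With the outside-gene read share in the model the calls of Foxp3 were lost, as were those of Ltb (0.52 and 0.55, adjusted p = 0.105 and 0.168 for Foxp3).

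Markers of other cell types that could make lymphotoxin or TNF, or be present in the samples, were summed per library. B cells express Ltb, and 1 of 12 B cell markers was high enough to test. The 12 summed to 9.60 to 11.1 CPM per library without IL-2, 7.24 to 8.89 with WT and 7.65 to 8.81 with ortho IL-2. Spib fell most, at 3.02, 1.88 and 1.31 CPM, and most of the others were lower with IL-2 too. Cd79b, the 1 marker tested, was at 2.13, 2.15 and 2.43 CPM and was not called, and Cd79a was at 0.935, 0.906 and 1.08 CPM. Myeloid cells are a main source of TNF, and 17 of their markers, 1 of them tested, summed to 14.9 to 16.5, 10.3 to 12.5 and 10.8 to 11.5 CPM, with Lyz2 and Csf1r at no more than 3 reads in a library. Itgam made up most of the myeloid sum, at 10.99 CPM without IL-2, 7.23 with WT and 7.11 with ortho IL-2, whereas Cd68 was at 1.13, 1.43 and 1.42 CPM and Mpeg1 at 1.46, 1.94 and 1.61 CPM. Sums of 11 CD8 T and NK cell markers were higher with IL-2, at 20.5 to 21.3, then 27.8 to 32.2 and 29.7 to 31.1 CPM. Of these markers 3 were tested, and Klra8 was at 0. Most of the rise was that of Prf1 (2.91, 6.84 and 7.44 CPM) and Gzma (2.82, 6.81 and 6.69 CPM). Cd8a and Cd8b1 were also higher, whereas Eomes, Klrd1, Klrb1c and Gzmk were lower. Ncr1 and Klre1 had no more than 4 reads in a library. Sums of 6 markers of innate lymphoid and lymphoid tissue inducer cells were higher too, at 40.9 to 43.9, then 58.5 to 66.0 and 56.4 to 61.7 CPM. Kit made up nearly all of this last sum and was the 1 marker tested, and Arg1 was at 0. Sums of 10 stromal and erythroid markers, mostly Pecam1, were at 279 to 292, 221 to 226 and 218 to 228 CPM. The part of these cells in the rise of the locus was not tested. The 6 Treg and T cell markers summed to 4833 to 4900, 4473 to 4602 and 4543 to 4622 CPM, but they moved in opposite directions. Foxp3 (524, 849 and 899 CPM) and Tnfrsf18 (244, 517 and 561 CPM) were higher with IL-2. Ctla4 (1299, 909 and 900 CPM), Ikzf2 (1719, 1402 and 1346 CPM) and Cd4 (656, 456 and 465 CPM) were lower. Cd3e was at 422, 411 and 408 CPM.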

How the data were processed

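The deposited tables list 31682 RefSeq transcripts with raw read counts and RPKM values per library, per the file headers. In the deposited tables RPKM is reads over transcript length and over 1 whole number per library, here called the RPKM divisor. The submitters' processing notes name mm10, edgeR, bedtools 2.25.0, SAMtools 0.1.8, TopHat2 and Bowtie2. Their roles, the read counter, the annotation and strandedness were not given in the sources used here. The growth protocol label describes another assay, so the culture rests on the treatment protocol label.

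For each symbol the transcript with the most reads was used. The deposited counts, after TMM scaling, entered a single model of group means over 9 libraries (edgeR 4.0.16, R 4.3.3), with 2-sided quasi-likelihood tests and Benjamini-Hochberg adjustment over 10702 genes. SE and 95% intervals came from that fit, and the code was tested on simulated data. Ratios were tested by exact permutation of samples with scipy 1.17.1. DESeq2 1.42.0 and limma 3.58.1, the latter on log2(RPKM + 1), served as alternatives. Named genes were the 4 genes of the locus, 4 receptors, up to 4 members with the smallest p per pathway list, protein-coding neighbours within 100 kb and the 5 most similar profiles per cytokine gene. Profiles used log2(CPM + 0.5). The members and lists were chosen with earlier results of these data known. Otulin is listed in the tables as Fam105b. Motif matches and the miRNA and promoter sequences came from RefSeq GRCm38.p6 tables, and UTRs and introns from GENCODE M21. Replicates of a group differed by more than sampling noise. One product of Mir6974 is not reported here.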

Additional observations from a re-analysis of the deposited data

How the results depend on the processing

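Over 19 alternative settings, the rises of Lta and Tnf kept their direction and their call in both comparisons with no IL-2, at log2 fold changes of 3.92 to 4.30 and 3.88 to 4.37 for Lta and 2.57 to 2.97 and 2.74 to 3.15 for Tnf. The rises of Ltb kept theirs in 18 of 19, at 0.42 to 0.88 with WT and 0.42 to 1.06 with ortho IL-2, the lowest with GC offsets, which were added after seeing the data. Leaving out replicate 1 of WT IL-2 gave the lowest Ltb value among left-out libraries, 0.50. With the outside-gene read share as a covariate, Ltb was at 0.53 and 0.61 and not called, genes called dropped from 5122 to 2130 in the WT group and from 5990 to 1573 in the ortho group, and pathway genes called from 31 to 16 and from 35 to 11. That share differs between the groups, and the cause was not tested.

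The ratio tests cannot pass 0.05 with only 2 libraries of no IL-2 or with 1 IL-2 group alone. With WT or ortho IL-2 libraries alone the log2 differences were 3.43 and 3.31 for Lta to Ltb and 1.33 and 1.22 for Lta to Tnf (exact permutation p = 0.1), and with 1 library left out they ran from 3.26 to 3.47 and from 1.20 to 1.32 (p = 0.0357 without an IL-2 library and 0.0714 without a library of no IL-2). The difference of Lta between ortho and WT IL-2, not called anywhere, was -0.0374 with the covariate, -0.0502 with GC offsets and -0.0434 to 0.0809 with 1 library left out, and that of Ltb was -0.00251 with GC offsets. Signs also turned with GC offsets for Bag6 (-0.13 with WT, -0.12 with ortho IL-2), H2-D1 (-0.11, ortho) and Nfkbil1 (-0.0203, ortho), and with the covariate for D17H6S53E (0.81, ortho). With the RPKM divisor and with limma they turned for Rel (0.0219 and 0.0193, WT), Adam17 (0.0145 and 0.0127), Gadd45b (0.00145 and 0.0044) and Tnip1 (0.0667 and 0.0557), the last 3 with ortho IL-2. Other neighbours not called in the main fit also had values on both sides of 0. With WT IL-2 these were D17H6S53E (-1.10 to 0.70), Nfkbil1 (-0.13 to 0.34), H2-D1 (-0.07 to 0.26) and Gpank1 (-0.37 to 0.07). Gpank1 with ortho IL-2 ran from -0.32 to 0.25.

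Libraries of the 3 groups share replicate numbers. The correlations of same-numbered deviations ran from -0.659 to 0.439, so the numbers were not taken to pair the samples. With the replicate block 2515 genes rose and 2273 fell in the WT group, 2846 rose and 2806 fell in the ortho group, and no call of the 3 cytokine genes changed, with Ltb at 0.65 and 0.77.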
